A study of Mus musculus with 15 samples.

Results

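Fatty acid oxidation and its regulators were examined as a set of 36 genes given by name: the nuclear receptor Ppara and its coactivator Ppargc1a, 3 pyruvate dehydrogenase kinases, and the enzymes and carriers of mitochondrial and peroxisomal beta-oxidation. A gene entered when the array held an entry paired with its symbol and no other, and where it had several such entries the one with the highest mean was used. This gave 34 of the 36 genes, out of 22180 genes tested in all. Acsl1 and Acsm3 were not analysed here.

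The samples were whole kidneys of mice carrying a Rosa26-LSL-PRCC-TFE3 knock-in, in which the PRCC-TFE3 fusion of a renal cell carcinoma is expressed after Cre recombinase removes a stop cassette. Cre came from the KSP-Cre transgene, driven by the Cdh16 promoter, which is active in tubule epithelium (its product is Ksp-cadherin), so the other cells of the organ keep the cassette. All 4 groups carried the knock-in: at the age of 4 months 4 mice without the Cre transgene (Cre-) and 4 with it (Cre+), and at 7 months 3 Cre- and 4 Cre+ mice, with 1 Affymetrix Mouse Gene 2.0 ST array per mouse. No group with Cre but without the knock-in was analysed here. Values are log2 expression values after robust multi-array averaging (RMA), so a difference of 1 is a 2-fold change, and levels of different genes cannot be compared on this scale. The 15 array medians lay between 4.40 and 4.55. The labels do not give sex. Y-linked genes were high (6.92 to 7.80) on 8 arrays and low (2.64 to 2.98) on 7, with both kinds in every group. Of the proximal tubule markers, 18 of 18 measured were above the median of all named entries (4.90) on all 15 arrays. Their mean level at 7 months was nevertheless lower in Cre+ (9.86) than in Cre- kidneys (11.07).

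Long-chain fatty acids are activated to acyl-CoA, carried into mitochondria by the carnitine shuttle and shortened in repeated rounds of dehydrogenation, hydration, a further dehydrogenation and thiolysis. PPAR alpha, the product of Ppara, is a nuclear receptor that binds fatty acids and switches on many of these genes together with RXR and the coactivator encoded by Ppargc1a. Pyruvate dehydrogenase kinases phosphorylate and inhibit the pyruvate dehydrogenase complex, which limits the entry of glucose carbon into the citric acid cycle. Proximal tubule cells rely on fatty acid oxidation for much of their energy.

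PPAR alpha and other nuclear receptors recognise elements built from the core AGGTCA, and factors of the MiT family, TFE3 among them, bind the E-box CACGTG, so both were searched for in RefSeq promoter windows of the mouse build GRCm38.p6, from 250 bases before to 50 bases after each annotated start, on both strands. Of 34 windows for 30 measured members, 4 (11.8%) held AGGTCA, in Cpt1a, Acadm, Acadvl and Echs1, against 16.3% of 32851 windows of all genes. The spaced repeat AGGTCANAGGTCA, which contains the shorter core, was in 0 member windows and in 13 (0.0396%) of all windows. CACGTG was in 1 member window (2.94%), at 1 annotated start of Pdk2, against 7.15% of all. Pdk2 had another annotated start, whose window held no match and is not printed. A match describes the letters only, and these windows do not cover distal elements. The 250 bases before the start are printed 5′ to 3′ on the gene's strand for the 5 genes with a match and for Pdk4, the 1 member that rose, which had none. Capitals mark the match, where TGACCT is AGGTCA read on the other strand.
Cpt1a, chr19:3323051-3323300, plus strand: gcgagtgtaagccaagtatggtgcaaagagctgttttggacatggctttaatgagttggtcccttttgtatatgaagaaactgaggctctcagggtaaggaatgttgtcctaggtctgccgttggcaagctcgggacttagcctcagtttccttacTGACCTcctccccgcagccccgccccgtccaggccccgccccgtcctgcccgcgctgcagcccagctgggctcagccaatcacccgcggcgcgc
Acadm, chr3:153944644-153944893, minus strand: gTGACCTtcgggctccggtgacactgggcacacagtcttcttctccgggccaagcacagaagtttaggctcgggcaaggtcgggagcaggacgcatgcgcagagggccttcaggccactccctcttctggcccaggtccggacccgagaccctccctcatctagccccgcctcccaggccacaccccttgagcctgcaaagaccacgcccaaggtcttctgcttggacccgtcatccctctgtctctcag
Acadvl, chr11:70015429-70015678, minus strand: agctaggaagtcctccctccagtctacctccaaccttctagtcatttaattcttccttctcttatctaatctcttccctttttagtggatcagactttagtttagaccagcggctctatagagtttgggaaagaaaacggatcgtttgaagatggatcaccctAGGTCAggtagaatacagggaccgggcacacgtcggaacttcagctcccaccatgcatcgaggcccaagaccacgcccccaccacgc
Echs1, chr7:140116422-140116671, minus strand: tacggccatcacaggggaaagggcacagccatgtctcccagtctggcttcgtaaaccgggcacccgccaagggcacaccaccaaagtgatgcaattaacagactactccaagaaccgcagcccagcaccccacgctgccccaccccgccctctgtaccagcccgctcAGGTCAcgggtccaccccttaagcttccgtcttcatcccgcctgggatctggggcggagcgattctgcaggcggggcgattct
Pdk2, chr11:95041372-95041621, minus strand: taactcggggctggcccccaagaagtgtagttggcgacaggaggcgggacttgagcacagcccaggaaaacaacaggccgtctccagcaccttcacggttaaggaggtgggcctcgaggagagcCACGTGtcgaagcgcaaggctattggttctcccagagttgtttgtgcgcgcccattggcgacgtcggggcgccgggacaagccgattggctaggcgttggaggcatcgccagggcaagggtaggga
Pdk4, chr6:5496279-5496528, minus strand: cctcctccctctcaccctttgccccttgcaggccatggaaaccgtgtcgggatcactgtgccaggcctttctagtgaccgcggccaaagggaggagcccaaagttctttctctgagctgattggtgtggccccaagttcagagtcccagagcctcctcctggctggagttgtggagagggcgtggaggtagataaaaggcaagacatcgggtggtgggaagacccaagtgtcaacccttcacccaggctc

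At 7 months nearly the whole set was lower in Cre+ kidneys. Of the 34 members 28 fell, 1 rose and 5 did not pass the test (limma, adjusted p below 0.05), whereas 10.8% of all genes tested fell and 11.7% rose. The median difference between Cre+ and Cre- was -0.66 over the members and -0.04 over all genes. Of the members 26 lay wholly below the Cre- arrays and 1 wholly above, against 15.2% and 14% of all genes. Falls of at least 2-fold were seen for 7 members: Ppara, Acsm2, Acad10, Acad11, Hadh, Acox2 and Ehhadh. In a whole organ, fewer cells of a type and less RNA per cell cannot be told apart.

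At 4 months far fewer members passed. Ppara and Echs1 fell and Pdk4 rose, against 0.803% of all genes that fell and 2.73% that rose. The median difference was -0.16 over the members, against 0.05 over all genes. Of the members 9 lay wholly below the Cre- arrays (Ppara, Pdk2, Cpt1a, Acadm, Acadvl, Acad10, Echs1, Etfa and Acox2) and 1 wholly above (Pdk4), against 3.16% and 6.31% of all genes.

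**Figure D1:**
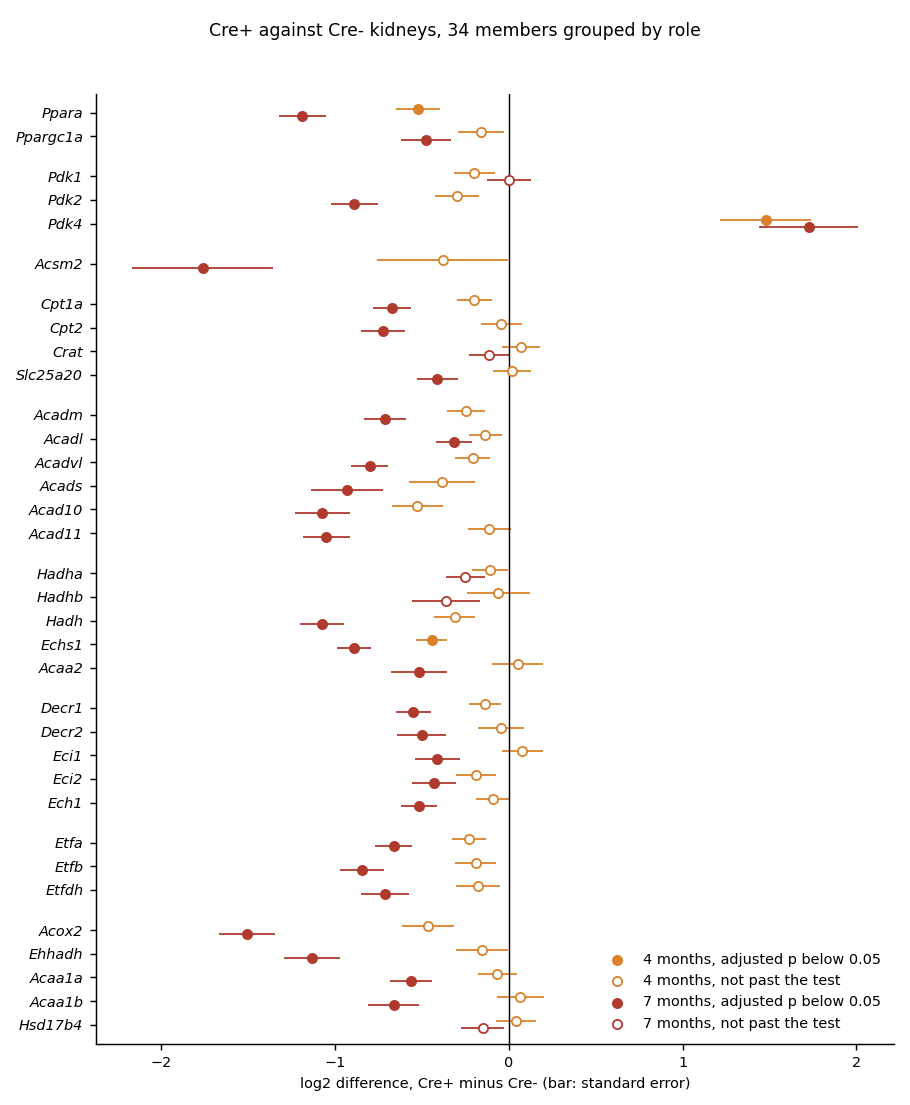
Difference between Cre+ and Cre- kidneys for each of the 34 members, in log2 units with standard errors, at 4 and 7 months, ordered by role. Most points at 7 months lie to the left of 0, with a median of -0.66, while Pdk4 stands to the right at both ages (1.48 and 1.72).

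The 2 regulators both fell at 7 months. Ppara stood at 7.73, 8.06, 7.89 and 7.80 on the Cre- arrays at 4 months and at 7.50, 7.17, 7.50 and 7.22 on the Cre+ arrays. At 7 months it stood at 7.93, 7.55 and 7.62 on the Cre- arrays and at 6.76, 6.30, 6.57 and 6.42 on the Cre+ arrays. The groups did not overlap at either age, and the Cre+ arrays at 7 months were the lowest of all. At 4 months the receptor gene fell by 0.52 (SE 0.13, adjusted p = 0.0276). At 7 months it fell by 1.19 (SE 0.14, adjusted p = 7.7e-06), which left 43.9% of the Cre- level. The 4-month call was lost without Cre- replicate 2 (-0.46, adjusted p = 0.0828), Cre- replicate 3 (-0.52, adjusted p = 0.0784), Cre+ replicate 2 (-0.46, adjusted p = 0.102) or Cre+ replicate 4 (-0.48, adjusted p = 0.0873). It was also lost under the plain linear model, which corresponds to an unmoderated analysis of variance (-0.52, adjusted p = 0.0618), and within arrays of high (-0.48, adjusted p = 0.181) or low Y-linked signal (-0.57, adjusted p = 0.126).

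Ppargc1a, the coactivator that also drives mitochondrial biogenesis, stood at 9.92, 9.44 and 9.59 on the Cre- arrays at 7 months and at 9.22, 9.02, 9.32 and 9.13 on the Cre+ arrays. The groups did not overlap at this age, but they did at 4 months. Its fall at 7 months was 0.47 (-0.47, SE 0.14, adjusted p = 0.0226), and at 4 months it was at -0.16 (adjusted p = 0.608). The 7-month call was lost without Cre- replicate 1 (-0.34, adjusted p = 0.132), Cre+ replicate 2 (-0.42, adjusted p = 0.0625) or Cre+ replicate 4 (-0.46, adjusted p = 0.0509).

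The pyruvate dehydrogenase kinases moved apart. Pdk4, whose transcription is known to respond to fasting and fatty acids, stood at 6.55, 6.70, 6.80 and 6.43 on the Cre- arrays at 4 months and at 7.40, 8.42, 8.18 and 8.40 on the Cre+ arrays. At 7 months the Cre- arrays stood at 7.74, 6.36 and 7.02 and the Cre+ arrays at 8.35, 8.66, 9.26 and 8.78. All Cre+ arrays were above all Cre- arrays at each age, although the Cre- arrays at 7 months were widely spread. The rise was 2.78-fold at 4 months (1.48, SE 0.26, adjusted p = 0.00317) and 3.31-fold at 7 months (1.72, SE 0.28, adjusted p = 0.000248), and the difference between these effects did not pass (0.25, SE 0.39, adjusted p = 0.802).

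Pdk2, a widely expressed kinase of the same family, went the other way. It stood at 9.27, 9.32 and 9.14 on the Cre- arrays at 7 months and at 8.52, 8.07, 8.62 and 8.21 on the Cre+ arrays. The groups were well apart, and the fall was 0.89 (SE 0.14, adjusted p = 0.000124). Pdk1, a target of hypoxia signalling, stood at 6.83, 6.50 and 6.78 on the Cre- arrays and at 6.68, 6.48, 6.79 and 6.86 on the Cre+ arrays, which overlap fully (0.00, SE 0.13, adjusted p = 0.998). At 4 months Pdk2 was at -0.30 (adjusted p = 0.241) and Pdk1 at -0.20 (adjusted p = 0.441).

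**Figure D2:**
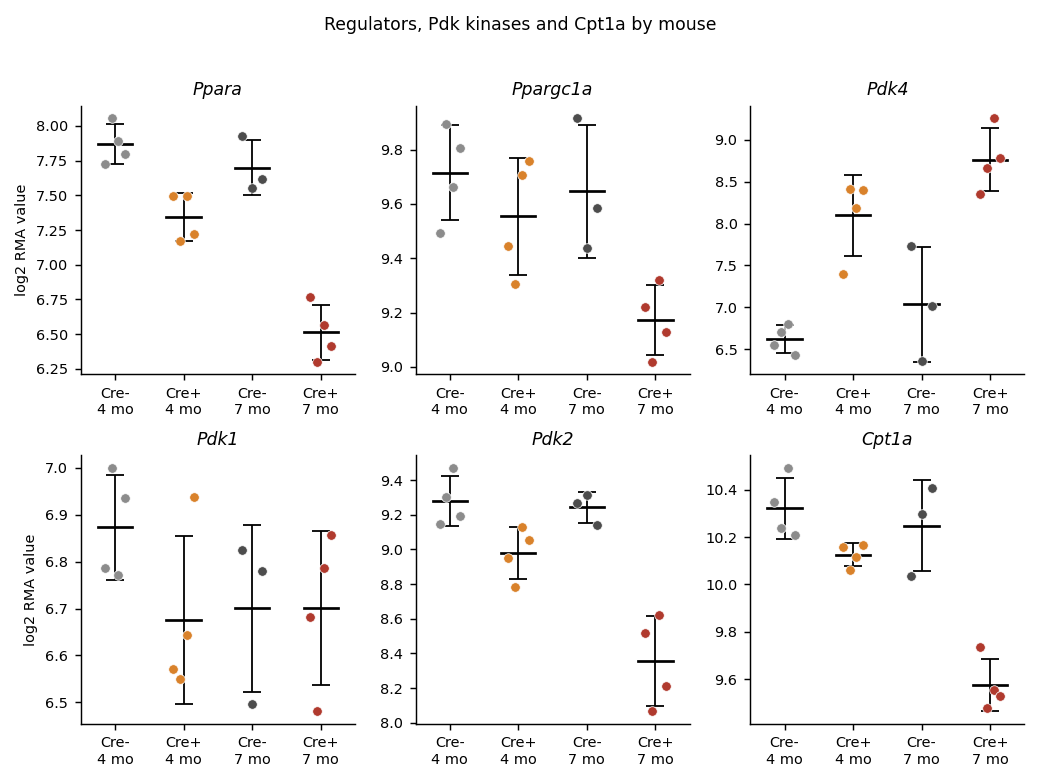
Log2 RMA value of Ppara, Ppargc1a, Pdk4, Pdk1, Pdk2 and Cpt1a in each mouse (points), with the mean and SD of each of the 4 groups. At 7 months the Cre+ arrays lie below all Cre- arrays for Ppara (6.30 to 6.76) and above all of them for Pdk4 (8.35 to 9.26), while the groups overlap for Pdk1.

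The acyl-CoA synthetase Acsm2 and 3 of the 4 members of the carnitine shuttle fell at 7 months. Acsm2, a mitochondrial medium-chain acyl-CoA synthetase, fell by 1.76 (SE 0.41, adjusted p = 0.00392), the largest fall among the members. Its Cre- arrays stood at 11.11, 12.14 and 12.03 and its Cre+ arrays at 10.92, 10.42, 9.18 and 9.48. The groups did not overlap, but values within a group differed by more than 1 log2 unit, and the low values fell on the arrays with low Y-linked signal.

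In the carnitine shuttle, Cpt1a, the outer-membrane carnitine palmitoyltransferase that sets the rate of entry, stood at 10.04, 10.30 and 10.41 on the Cre- arrays at 7 months and at 9.74, 9.48, 9.55 and 9.53 on the Cre+ arrays. It fell to 62.7% of the Cre- level (-0.67, SE 0.11, adjusted p = 0.000241), with no overlap. Its inner-membrane partner Cpt2 fell by 0.73 (SE 0.13, adjusted p = 0.000429). The carnitine-acylcarnitine carrier Slc25a20 fell by 0.41 (SE 0.12, adjusted p = 0.017), but its groups overlapped, since Cre+ replicate 3 at 7.65 stood above Cre- replicate 2 at 7.59. That call was lost without Cre- replicate 1 (-0.32, adjusted p = 0.092), Cre- replicate 3 (-0.39, adjusted p = 0.0515) or Cre+ replicate 2 (-0.35, adjusted p = 0.054), and in a fit of the 7-month groups alone (-0.41, adjusted p = 0.0639). Crat, the acetyltransferase that buffers acetyl-CoA as acetylcarnitine, was at -0.11 (SE 0.12, adjusted p = 0.56). A second, dimmer entry for Crat was at -0.46 (SE 0.16), so its entries disagree in size.

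All 6 acyl-CoA dehydrogenases, which carry out the first step of each round, fell at 7 months. By preferred chain length, Acadvl (very long) fell by 0.80 (SE 0.11, adjusted p = 3.38e-05), Acadl (long) by 0.31 (SE 0.10, adjusted p = 0.0324), Acadm (medium) by 0.71 (SE 0.12, adjusted p = 0.000276) and Acads (short) by 0.93 (SE 0.21, adjusted p = 0.00305). Acad10 and Acad11, members of the same family with less studied substrates, fell 2.10-fold (SE 0.16 on the log2 scale, adjusted p = 9.29e-05) and 2.07-fold (SE 0.13 on that scale, adjusted p = 2.19e-05). The medium-chain enzyme Acadm stood at 11.90, 11.88 and 11.97 on the Cre- arrays and at 11.33, 11.06, 10.98 and 11.44 on the Cre+ arrays. None of the 6 overlapped between the groups. The Acadl call was lost without Cre- replicate 1 (-0.31, adjusted p = 0.0802), Cre- replicate 3 (-0.27, adjusted p = 0.102), Cre+ replicate 2 (-0.29, adjusted p = 0.0763), Cre+ replicate 3 (-0.30, adjusted p = 0.0695) or Cre+ replicate 4 (-0.30, adjusted p = 0.0762). It was also lost in 6 of the 12 alternative settings, which were quantile normalization (-0.23, adjusted p = 0.062), a fit of the 7-month groups alone (-0.31, adjusted p = 0.0773), array weights (-0.27, adjusted p = 0.0554), the replicate block (-0.30, adjusted p = 0.061) and the fits within arrays of high (-0.27, adjusted p = 0.214) or low Y-linked signal (-0.37, adjusted p = 0.174). The Acads call was lost within arrays of low Y-linked signal, where the difference was -0.45 (adjusted p = 0.206), against -1.14 (adjusted p = 0.000445) within those of high signal.

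At 4 months neither Acad11 nor Acad10 passed. Acad11 stood at 9.00, 8.73, 9.10 and 8.93 on the Cre- arrays at 4 months and at 8.83, 8.96, 8.64 and 8.88 on the Cre+ arrays, which overlap. At 7 months its Cre- arrays stood at 8.83, 9.02 and 9.17 and its Cre+ arrays at 8.27, 7.86, 7.74 and 7.96. Acad10 at 4 months had Cre- arrays at 7.73, 7.30, 7.41 and 7.08 and Cre+ arrays at 7.03, 6.47, 7.06 and 6.86. Its groups did not overlap, but the difference did not pass (-0.53, SE 0.15, adjusted p = 0.0603). The difference between the effects at 7 and 4 months passed for Acad11 (-0.94, adjusted p = 0.0135) and did not for Acad10 (-0.55, adjusted p = 0.221), and the contrast between these genes was not tested.

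Among the 5 members of the hydratase, hydroxyacyl-CoA dehydrogenase and thiolase steps, 3 fell at 7 months. Echs1, the short-chain enoyl-CoA hydratase, stood at 9.64, 9.73, 9.67 and 9.55 on the Cre- arrays at 4 months and at 9.35, 9.08, 9.15 and 9.24 on the Cre+ arrays. At 7 months it stood at 9.53, 9.53 and 9.55 on the Cre- arrays and at 8.65, 8.58, 8.78 and 8.57 on the Cre+ arrays. The groups were apart at both ages, and the arrays within each group were close. The fall in Echs1 was 0.44 at the earlier age (-0.44, SE 0.09, adjusted p = 0.00809) and 0.89 at the later (-0.89, SE 0.10, adjusted p = 4.45e-06). The call at the earlier age was lost for Echs1 within arrays of high (-0.44, adjusted p = 0.112) or low Y-linked signal (-0.45, adjusted p = 0.121).

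Hadh, the short-chain hydroxyacyl-CoA dehydrogenase, stood at 11.17, 11.14 and 10.98 on the Cre- arrays at 7 months and at 10.20, 9.74, 10.11 and 10.04 on the Cre+ arrays. It fell by 1.07 (SE 0.13, adjusted p = 1.05e-05), to 47.6% of the Cre- level. Acaa2, the mitochondrial thiolase, fell by 0.52 (SE 0.16, adjusted p = 0.0275), with Cre+ replicate 3 at 9.21 just above Cre- replicate 2 at 9.19. The Acaa2 call was lost without Cre- replicate 1 (-0.35, adjusted p = 0.16), Cre+ replicate 1 (-0.51, adjusted p = 0.0532), Cre+ replicate 2 (-0.43, adjusted p = 0.0831) or Cre+ replicate 4 (-0.51, adjusted p = 0.0545). It was also lost under the plain linear model (-0.52, adjusted p = 0.0556), in a fit of the 7-month groups alone (-0.52, adjusted p = 0.0523) and with array weights (-0.43, adjusted p = 0.0558).

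Hadha and Hadhb encode the subunits of the trifunctional protein, which takes long-chain substrates through these steps, and neither passed. Hadha stood at 9.70, 9.51 and 9.77 on the Cre- arrays at 7 months and at 9.43, 9.31, 9.36 and 9.54 on the Cre+ arrays, with 1 Cre+ array inside the Cre- range (-0.25, SE 0.11, adjusted p = 0.131). Hadhb was at -0.36 (SE 0.20, adjusted p = 0.218), and its entry was below the median of all named entries on all 15 arrays, so its hybridisation signal is weak.

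The 5 auxiliary enzymes, which make the double bonds of unsaturated fatty acids accessible to the cycle, all fell at 7 months by similar amounts, from 0.41 to 0.55. Decr1, the mitochondrial dienoyl-CoA reductase, stood at 7.69, 7.68 and 7.78 on the Cre- arrays and at 7.38, 7.08, 7.09 and 7.11 on the Cre+ arrays (-0.55, SE 0.10, adjusted p = 0.000659). Ech1, a dienoyl-CoA isomerase, stood at 10.34, 10.39 and 10.42 and at 10.08, 9.71, 9.87 and 9.80 (-0.52, SE 0.10, adjusted p = 0.00125). Neither overlapped between the groups. The peroxisomal reductase Decr2 fell by 0.50 (SE 0.14, adjusted p = 0.0161), and the enoyl-CoA isomerases Eci1 and Eci2 fell by 0.41 and by 0.43 (SE 0.13 for each, adjusted p = 0.0294 and 0.019).

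These last 3 calls were each lost when certain arrays were left out. Decr2 lost its call without Cre- replicate 3 (-0.47, adjusted p = 0.0547) or Cre+ replicate 2 (-0.40, adjusted p = 0.0528). Eci1 lost it without Cre- replicate 1 (-0.36, adjusted p = 0.106), Cre- replicate 3 (-0.41, adjusted p = 0.066), Cre+ replicate 1 (-0.40, adjusted p = 0.0618) or Cre+ replicate 2 (-0.30, adjusted p = 0.0906), and in a fit of the 7-month groups alone (-0.41, adjusted p = 0.0692). Eci2 lost it without Cre- replicate 2 (-0.39, adjusted p = 0.0798), Cre- replicate 3 (-0.37, adjusted p = 0.0744) or Cre+ replicate 4 (-0.36, adjusted p = 0.0648).

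The electron transfer flavoprotein passes electrons from the acyl-CoA dehydrogenases to the respiratory chain, and its 3 genes all fell at 7 months without overlap. Etfb, the beta subunit, stood at 9.51, 9.57 and 9.71 on the Cre- arrays and at 8.88, 8.52, 8.89 and 8.74 on the Cre+ arrays (-0.84, SE 0.13, adjusted p = 9.27e-05). The alpha subunit Etfa fell by 0.66 (SE 0.11, adjusted p = 0.000171) and the ubiquinone oxidoreductase Etfdh by 0.71 (SE 0.14, adjusted p = 0.000916).

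Peroxisomal beta-oxidation held both some of the largest falls and a member that did not pass. Acox2, the branched-chain acyl-CoA oxidase that also acts on bile acid intermediates, stood at 7.32, 7.32, 7.17 and 7.21 on the Cre- arrays at 4 months and at 6.90, 6.39, 6.93 and 6.94 on the Cre+ arrays. At 7 months it stood at 7.47, 7.11 and 7.01 on the Cre- arrays and at 5.92, 5.33, 5.83 and 5.68 on the Cre+ arrays. The groups did not overlap at either age. The difference was -0.46 at 4 months, which did not pass (SE 0.15, adjusted p = 0.105), and Acox2 fell 2.84-fold at 7 months (-1.51, SE 0.16, adjusted p = 3.4e-06).

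Ehhadh, the peroxisomal bifunctional enzyme of straight-chain substrates and a classical PPAR alpha target, overlapped between the groups at 4 months, at 10.31, 10.00, 10.24 and 10.10 on the Cre- arrays and 10.28, 9.99, 9.88 and 9.89 on the Cre+ arrays. At 7 months it stood at 10.20, 10.42 and 10.37 on the Cre- arrays and at 9.45, 8.86, 8.94 and 9.53 on the Cre+ arrays, a fall of 1.13 (SE 0.16, adjusted p = 5.37e-05). The thiolases Acaa1a and Acaa1b fell by 0.56 and by 0.66 (SE 0.12 and 0.15, adjusted p = 0.00241 and 0.00303). They are near-identical genes, so their probes may share signal and their separate values are uncertain. Hsd17b4, the bifunctional enzyme of branched-chain substrates, stood at 10.04, 10.30 and 10.56 on the Cre- arrays and at 10.26, 10.10, 10.09 and 10.14 on the Cre+ arrays, inside the Cre- range (-0.15, SE 0.12, adjusted p = 0.447).

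**Figure D3:**
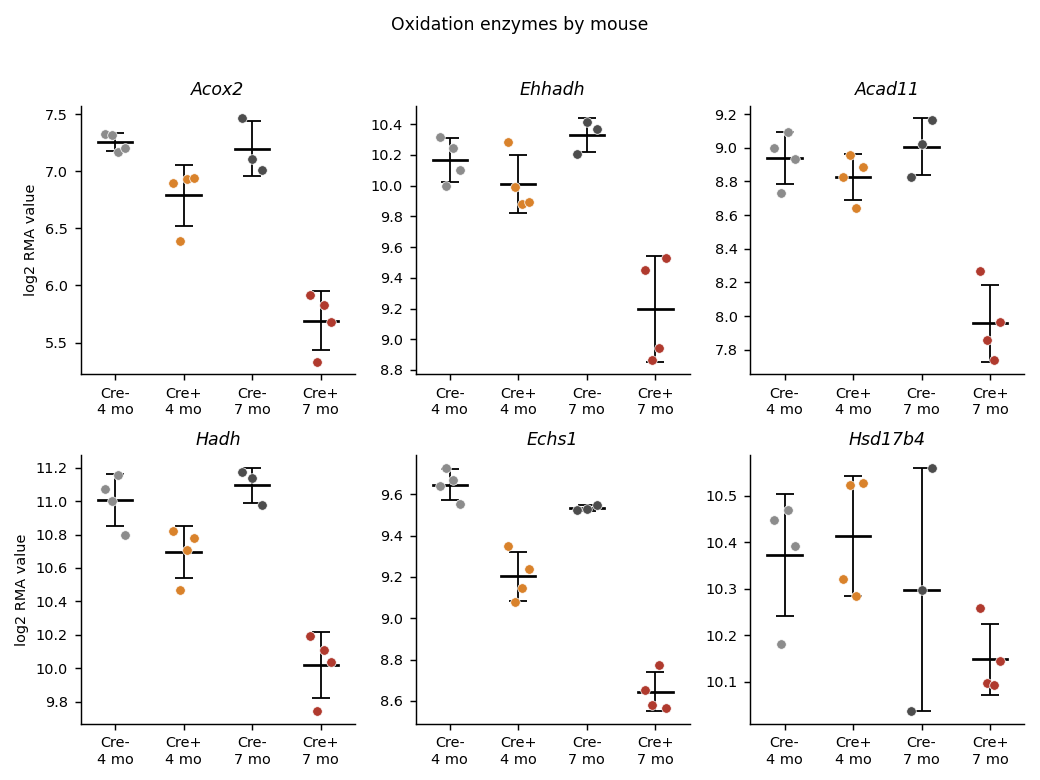
Log2 RMA value of 6 oxidation enzymes in each mouse (points), with the mean and SD of each of the 4 groups; each panel has its own vertical range. Acox2, Ehhadh, Acad11, Hadh and Echs1 have all 4 Cre+ arrays at 7 months below every Cre- array, and Hsd17b4 does not.

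In Cre- kidneys no member passed between 4 and 7 months. In limma 0 of 34 passed, and 0 had an unadjusted p below 0.05, against 0.00451% of all genes that passed (1 gene). The plain linear model also gave 0. The median difference was 0.00, with 17 members positive and 17 negative. In Cre+ kidneys 23 of 34 members were lower at 7 than at 4 months and 0 were higher (1 higher at an unadjusted p below 0.05), against 6.71% of all genes that were lower. The median there was -0.50, against -0.09 over all genes. The larger falls with age in Cre+ kidneys included Acox2 (-1.10, SE 0.15, adjusted p = 0.000178), Acad11 (-0.87, SE 0.12, adjusted p = 0.000297) and Ppara (-0.83, SE 0.13, adjusted p = 0.000467). This comparison shares its arrays with those between Cre+ and Cre- kidneys and is not separate evidence.

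The test of the difference between the Cre effects at 7 and 4 months passed for 5 members, all more negative at 7 months, against 1.18% of all genes. They were Acox2 (-1.04, SE 0.22, adjusted p = 0.0193), Ehhadh (-0.98, SE 0.22, adjusted p = 0.0269), Acad11 (-0.94, SE 0.18, adjusted p = 0.0135), Hadh (-0.76, SE 0.17, adjusted p = 0.0308) and Acadvl (-0.59, SE 0.15, adjusted p = 0.0442). The median of this difference was -0.48 over the members, against -0.08 over all genes. Ppara itself did not pass (-0.66, SE 0.19, adjusted p = 0.0775).

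With each of the 15 arrays left out in turn, Acad11 and Acox2 kept this call (highest adjusted p of 0.0399 and 0.0487). Acadvl kept it only without Cre- replicate 3 or Cre+ replicate 2 at 4 months, with values from -0.64 to -0.53 and adjusted p up to 0.0914 over the 15 fits. Hadh lost it without Cre- replicate 2 or 4 or Cre+ replicate 1, 3 or 4 at 4 months, or without Cre- replicate 1 or 2 or Cre+ replicate 2 at 7 months (-0.84 to -0.67, adjusted p up to 0.0796). Ehhadh lost it without Cre- replicate 2 or 4 or Cre+ replicate 1 at 4 months, or without Cre- replicate 2 or 3 or Cre+ replicate 2 or 3 at 7 months (-1.09 to -0.87, adjusted p up to 0.0769). Under the plain linear model Acox2 (adjusted p = 0.0646), Ehhadh (adjusted p = 0.0775) and Hadh (adjusted p = 0.0611) did not pass. Within arrays of high Y-linked signal none of the 5 passed, with values of -0.88 for Acad11 (adjusted p = 0.127), -0.84 for Acox2 (adjusted p = 0.234), -1.09 for Ehhadh (adjusted p = 0.133), -0.62 for Hadh (adjusted p = 0.326) and -0.51 for Acadvl (adjusted p = 0.311). Within arrays of low signal none of these 5 passed either, at -0.91 for Acad11 (adjusted p = 0.139), -1.38 for Acox2 (adjusted p = 0.0664), -0.80 for Ehhadh (adjusted p = 0.323), -0.94 for Hadh (adjusted p = 0.134) and -0.67 for Acadvl (adjusted p = 0.192).

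Markers of most other cell types measured also changed in the same arrays. The marker counts at 7 months stand against 10.8% of all genes that fell and 11.7% that rose. The mean level of the 34 members lay between 8.94 and 9.01 in Cre- kidneys and between 8.20 and 8.49 in Cre+ kidneys at 7 months. The mean of the 18 proximal tubule markers lay between 11.05 and 11.08 in Cre- and between 9.59 and 10.07 in Cre+ kidneys, and 17 of the 18 fell, with a median of -1.20. Slc34a1, the phosphate cotransporter of the proximal tubule, fell by 1.34 (SE 0.11), Lrp2 (megalin) by 0.94 (SE 0.14) and Cubn (cubilin) by 0.84 (SE 0.13). The mean of the 17 macrophage and monocyte markers rose from 5.41 to 5.82 in Cre- kidneys to 7.18 to 7.44 in Cre+ kidneys, and 16 of the 17 rose, with a median of 1.53. Adgre1, the macrophage marker F4/80, rose 3.82-fold (1.93, SE 0.25). The lymphocyte markers rose for 6 of 7 (list mean 4.34 to 4.60 in Cre- and 5.60 to 6.26 in Cre+ kidneys) and the fibroblast and myofibroblast markers for 5 of 8 (6.61 to 7.07 and 7.94 to 8.07).

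Markers of other tubule segments fell at 7 months as well. All 5 markers of the distal convoluted tubule fell (list mean 8.40 to 8.85 in Cre- and 7.26 to 7.71 in Cre+ kidneys), 4 of 8 of the thick ascending limb (9.30 to 9.61 and 8.63 to 8.78) and 4 of 5 of intercalated cells (7.51 to 7.99 and 6.91 to 7.25). Of the podocyte markers 3 of 4 fell and of the endothelial markers 2 of 7. Of 7 principal cell markers of the collecting duct 1 rose and 0 fell in limma (1 lower at an unadjusted p below 0.05). The principal cell counts are near the shares of all genes that rose (11.7%) and fell (10.8%). The part of any of these shifts in the members' differences was not tested.

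At 4 months fewer markers had changed. The marker counts at this age stand against 0.803% of all genes that fell and 2.73% that rose. The mean of the proximal tubule markers lay between 11.07 and 11.16 in Cre- and between 10.73 and 10.94 in Cre+ kidneys, with 3 of 18 falling and a median of -0.26. The mean of the macrophage markers lay between 5.36 and 5.96 and between 6.11 and 6.54, with 6 of 17 rising and a median of 0.61. Of the other lists, 4 of 8 fibroblast and 2 of 7 lymphocyte markers rose, and 3 of 8 markers of the thick ascending limb and 2 of 5 of the distal convoluted tubule fell. The mean of the members lay between 8.89 and 9.03 in Cre- and between 8.74 and 8.89 in Cre+ kidneys. Of 7 measured adipocyte markers, which could carry fatty acid genes from perirenal fat, 0 were above the named median on all arrays. Only 1 was below it on all arrays, and the others lay on either side of it, depending on the array. In limma 0 of the 7 passed at 4 months (0 at an unadjusted p below 0.05) and 2 fell at 7 months. The part of fat in the members' values was not tested. The fat hormone Adipoq was at -0.08 at 7 months (adjusted p = 0.919).

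Between arrays with high and low Y-linked signal, with the 4 groups in the model, 3 members differed, against 3.4% of all genes. Acsm2 was 1.07 higher on the 8 arrays with high signal (SE 0.09, adjusted p = 1.99e-06). Acaa2 was 0.34 lower on them (-0.34, SE 0.07, adjusted p = 0.0137), and so was Ppargc1a (-0.27, SE 0.07, adjusted p = 0.0474). These classes were set from the data and are not groups of the study.

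At 7 months the Acsm2 difference was -1.42 among arrays with high signal (SE 0.17, adjusted p = 5.1e-05) and -1.78 among those with low signal (SE 0.21, adjusted p = 8.43e-05). The class with low signal holds 1 Cre- array at 7 months, so its tests take the spread from the other arrays and assume that this array varies as they do. Among arrays with high signal 24 members fell at 7 months and 1 rose (median -0.70), against 9.66% and 7.85% of all genes. Among those with low signal 18 fell and 1 rose (median -0.60), against 5.87% and 8.14% of all genes. Pdk4 was the member that rose in each. The calls lost among arrays with high signal were those of Ppargc1a, Slc25a20, Acadl and Acaa1a (adjusted p from 0.0542 to 0.214), and among those with low signal those of Cpt1a, Slc25a20, Acadl, Acads, Decr2, Ech1, Eci1, Eci2, Etfdh and Acaa1b (adjusted p from 0.0594 to 0.266). The test of a difference in Cre effect between the classes passed for 0 of 34 members at either age (limma, lowest adjusted p of 0.417 at 4 months and 0.52 at 7 months), with 1 member at each age below an unadjusted p of 0.05. The difference between the classes furthest from 0 at 7 months was that of Acads (-0.69, SE 0.28, adjusted p = 0.52).

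**Figure D4:**
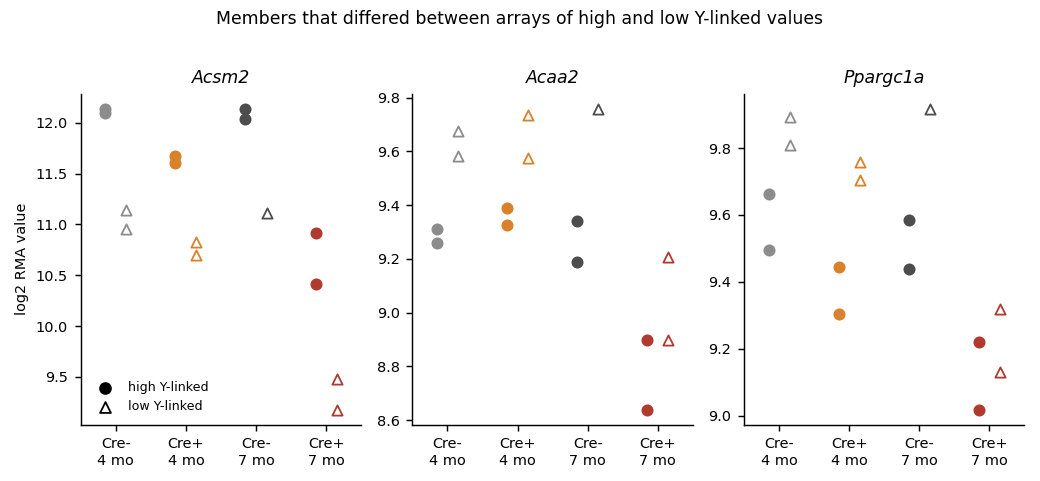
Log2 RMA value of Acsm2, Acaa2 and Ppargc1a in each mouse, by group and by high or low Y-linked signal. Acsm2 is higher on the arrays with high signal in every group, by 1.07 in the model, while Acaa2 and Ppargc1a are lower on them by 0.34 and 0.27.

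The wider pathway was described through lists of other genes, whose counts stand against 10.8% of all genes that fell and 11.7% that rose at 7 months, and 0.803% and 2.73% at 4 months. Of 18 measured receptors, partners and co-regulators of PPAR alpha, 9 fell and 2 rose at 7 months, with a median of -0.45. The orphan receptor Esrrb fell by 1.38 (SE 0.18), Hnf4a, a nuclear receptor of proximal tubule differentiation, by 1.25 (SE 0.11), and Prkaa2, a catalytic subunit of the energy sensor AMPK, by 1.05 (SE 0.12). Pprc1, a coactivator related to Ppargc1a, rose by 0.42 (SE 0.11) and the corepressor Nrip1 by 0.36 (SE 0.11). At 4 months 2 of the 18 fell, Esrrb (-0.89, SE 0.17) and the mitochondrial deacetylase Sirt3 (-0.42, SE 0.11).

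The list around pyruvate oxidation named 11 genes, of which 10 were measured. It held genes of the pyruvate dehydrogenase complex, its phosphatases and the pyruvate carrier, and also named a further pyruvate dehydrogenase kinase. Of the 10 measured genes 7 fell at 7 months and 0 rose, also at an unadjusted p below 0.05, with a median of -0.52. They included the carrier subunit Mpc1 (-1.12, SE 0.13), the phosphatase Pdp2, which reverses the kinases' action (-0.78, SE 0.13), and Dld, the shared E3 subunit (-0.77, SE 0.11). At 4 months 0 of the 10 passed, with 3 negative at an unadjusted p below 0.05.

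Of 20 genes of fatty acid uptake and activation 8 fell and 3 rose at 7 months, with a median of -0.21, and the count that rose is near the share of all genes. The medium-chain synthetases Acsm1 and Acsm5 fell 4.43-fold (-2.15, SE 0.23) and 3.49-fold (-1.80, SE 0.18), and the fatty acid transporter Cd36 fell 3.00-fold (-1.59, SE 0.41). Acacb, whose product malonyl-CoA inhibits Cpt1a, rose by 0.76 at 4 months (SE 0.13) and by 0.91 at 7 months (SE 0.15). The long-chain synthetases Acsl5 and Acsl4 rose by 0.72 (SE 0.14) and 0.50 (SE 0.17) at 7 months.

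Of 11 other mitochondrial oxidation and ketone body genes 8 fell at 7 months, with a median of -0.69. The acetoacetyl-CoA thiolase Acat1 fell by 1.14 (SE 0.19), the ketone dehydrogenase Bdh1 by 1.10 (SE 0.16) and Acad9, an acyl-CoA dehydrogenase that also assembles complex I, by 0.99 (SE 0.18). Bdh1 was the 1 gene of this list that fell at 4 months (-0.66, SE 0.15).

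Of 33 other peroxisomal genes 22 fell at 7 months and 0 rose, also at an unadjusted p below 0.05, with a median of -0.58. Eci3, an enoyl-CoA isomerase, fell 3.79-fold (-1.92, SE 0.16), the racemase Amacr 3.59-fold (-1.85, SE 0.46) and the reductase Pecr 3.15-fold (-1.66, SE 0.27). At 4 months 2 fell, the oxidase Ddo (-0.62, SE 0.13) and the membrane protein Pxmp2 (-0.49, SE 0.13).

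Of 11 measured PPAR alpha targets outside oxidation 2 fell and 1 rose at 7 months, with a median of -0.25. These counts are near the shares of all genes that fell and rose. The list mean at 7 months lay between 7.05 and 7.13 in Cre- and between 6.80 and 6.96 in Cre+ kidneys. At 4 months it went the other way, between 6.71 and 7.06 in Cre- and between 7.07 and 7.20 in Cre+ kidneys. The Cre- kidneys also differed between the ages, with a group mean of 6.84 at 4 months and 7.09 at 7 months. For Cre+ kidneys the group means were 7.13 and 6.86. The pantetheinase Vnn1 fell by 0.91 (SE 0.12) and the omega-hydroxylase Cyp4a31 by 0.79 (SE 0.14), both at 7 months. The mitochondrial carrier Ucp3 rose by 0.73 at 4 months (SE 0.16) and by 1.04 at 7 months (SE 0.17), but was below the median of all named entries on all 15 arrays. Each of the pathway genes described as having risen or fallen passed limma at an adjusted p below 0.05 over all 22180 genes.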

How the data were processed

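Total RNA of 15 whole mouse kidneys, 100 ng per array with RNA integrity numbers above 7 per the labels' protocols, was measured on 15 Affymetrix arrays. The deposited log2 values were made by the authors with Partek 6.6 and RMA, per the submitters' processing notes. This method subtracts background, normalizes probe values between arrays and reduces each probe set to 1 value, which lessens overall shifts between arrays. The array medians still lay between 4.40 and 4.55. The range of the deposited values (1.04 to 13.12) is that of log2 values. The array annotation's build was not given in the sources used here. Arrays have no sequencing depth, and their number limits the precision.

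Of 41345 entries 23521 had 1 gene symbol, 1814 had several and 16010 had none, and 23328 of the first were matched by Entrez identifier to the RefSeq table of GRCm38.p6. The entry of highest mean was kept per gene (22180 genes, no filter on dim genes). Groups were taken from the titles. The 4 group means were fitted for every gene by limma 3.58.1 under R 4.3.3 (lmFit, then eBayes), on 15 arrays. All tests used both tails, p-values were adjusted over all 22180 genes by Benjamini-Hochberg and the threshold was 0.05, and SE means limma's moderated standard error. An analysis of variance, which the submitters name, corresponds to the unmoderated alternative. Each array is 1 mouse, and the p-values rest on differences between mice of a group. The procedure was tested on simulated data.

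The members and the gene lists were chosen with earlier results of these data known. All members could be named. Of each pathway or marker list up to 3 rising and 3 falling genes by size among those past the test could be named (up to 3 per marker list), with Slc34a1, Lrp2, Cubn, Adgre1, Csf1r, Adipoq, Umod and Slc12a3 open to naming whatever their values. Alternatives were quantile normalization, centring on array medians, a plain linear model, variance with trend and robust settings, array weights, a block for replicate number, fits of 2 groups, a Y-linked covariate, averaging of a gene's entries, a filter on dim genes (above the named median on 3 arrays or more), fits within arrays of high or low Y-linked signal, and each array left out in turn. Promoter windows came from RefSeq, and 30 of the 34 members had one. Python 3.11.15 with pandas 2.3.3, numpy 2.4.6 and matplotlib 3.10.9 was used for tables and figures.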

Additional observations from a re-analysis of the deposited data

Results flagged for a closer look

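In 2 of 102 combinations of member and group of 4 arrays (1.96%), 1 array stood far from the other 3 by Dixon's criterion, which chance meets in about 1 in 20 groups. Decr1 was at 7.38 on Cre+ replicate 1 at 7 months, where the other 3 arrays lay between 7.08 and 7.11. Acox2 was at 6.39 on Cre+ replicate 2 at 4 months, where the others lay between 6.90 and 6.94.

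The effect of Cre differed between 7 and 4 months for 5 members by limma's interaction term. The differences were -1.04 for Acox2, -0.98 for Ehhadh, -0.94 for Acad11, -0.76 for Hadh and -0.59 for Acadvl.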

How the results depend on the processing

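No called difference reversed in the 12 alternatives (11 for the difference between ages, which fits of 2 groups cannot give) or with any of the 15 arrays left out. The calls kept in all settings run were 1 of 3 at 4 months (Pdk4), 16 of 29 at 7 months, 0 of 5 for the difference between ages and 7 of 23 for age in Cre+ kidneys. The count of members that fell at 4 months (2) was 1 under the plain linear model, 1 within arrays of high and 0 within arrays of low Y-linked signal, and 1 to 3 with an array left out. The count that fell at 7 months (28) was 18 within arrays of low Y-linked signal, which hold 1 Cre- array, and 22 to 28 with an array left out. The count for the difference between ages (5) was 10 with the filter on dim genes, 8 with trend and robust variance, 9 with the Y-linked covariate, 2 under the plain linear model, 0 within arrays of high and 1 within arrays of low signal, and 2 to 7 with an array left out. The count lower with age in Cre+ kidneys (23) was 11 within arrays of high and 15 within arrays of low signal, and 17 to 23 with an array left out. The shares of all genes called in the same settings are not set beside these counts. The counts alone therefore do not tell a change in the members from a change in the calls over all genes. The cause of these changes in count was not tested.

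Correlations between the deviations of same-numbered mice ran from -0.28 to 0.22. They were positive where both mice had the same Y-linked class (0.19, 0.19 and 0.22) and negative where the classes differed. The class was not removed first, so this check cannot decide whether the numbers pair the mice. With the replicate block 27 members fell at 7 months in place of 28, Acadl being the call lost (-0.30, adjusted p = 0.061). Median centring turned the calls over all genes at 4 months from 77.3% to 53.1% higher, while 3 members in place of 2 fell. Acad10 at 4 months passed in 8 settings. Dim entries such as Hadhb limit what these arrays can show.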
